A study of Mus musculus with 2 samples.

Results

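The transcripts of 8 complement genes, of 32285 genes counted, were followed in immune cells of mouse pancreatic tumors. They were chosen by name as the complement components and receptors C1qa, C1qb, C1qc, C3, Cfb, Cfp, C3ar1 and C5ar1, and each symbol matched a single gene identifier in the count tables. Complement is a cascade of proteins that tags targets and calls in phagocytes. C1q, built from the products of C1qa, C1qb and C1qc, recognises antibody complexes and dying cells and starts the classical pathway. C3 is the central component on which all pathways converge. Factor B (Cfb) and properdin (Cfp) form and stabilise the convertase of the alternative pathway. C3ar1 and C5ar1 are the receptors of the released fragments C3a and C5a. In tumors, macrophages are known as a main source of C1q, and C5ar1 is known as a receptor of neutrophils and other myeloid cells.

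Single-cell RNA sequencing of 2 droplet libraries was analysed, 1 for each treatment. Each library pooled cells of 3 male C57BL/6J mice, bought at 5 to 6 weeks of age, that bore K210 tumor cells in the pancreas. Both groups share this tumor line and host strain. The first group received PBS. The second received cmExoaCD11b, exosomes that carry IL-12 mRNA and cGAMP (a STING agonist) and CD11b antibodies, and cells were taken 48 h after treatment. Since each treatment is a single pool, no test between treatments was possible. Every interval below (95%) covers counting error only, not the spread between mice. Intervals of levels and ratios also leave out the spread between cells. A library effect and a treatment effect cannot be told apart.

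After filters, 6835 cells were kept in the PBS library (median 3470 UMIs per cell) and 7073 in the cmExoaCD11b library (median 4103). A UMI is a tagged RNA molecule and levels are in CPM, a gene's UMIs relative to the class total, which allow comparison between classes and libraries but not between genes. Cells were put into classes by UMIs of marker genes, none of which was one of the 8 members. In such sums, fewer expressing cells and less RNA per cell cannot be told apart. Check markers that the gates did not use were higher in their own class than elsewhere, except that 4 of 5 were so for monocytes. Neutrophils and T cells were each checked as a whole, so the split into mature and immature neutrophils was not checked. Endothelial cells and mast cells or basophils were not checked. Macrophages numbered 203 in PBS and 43 in cmExoaCD11b, and monocytes 100 and 98. Mature neutrophils numbered 3906 and 2764, and immature neutrophils 1200 and 1860. A further 502 and 792 cells fell into no class, since no lineage led clearly. The kept barcodes that both libraries share numbered 16.

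To show sequence context, the 150 bases just before the annotated start are printed for C1qb, C1qc, C3ar1 and C3. C1qb and C1qc were taken because their levels ran in parallel across classes, though their ratios between libraries in monocytes were 0.261 and 0.153. C3ar1 was taken because its ratios lay near theirs in monocytes and neutrophils, and C3 because its ratios did not. The sequences are RefSeq windows (GRCm38.p6), all on the minus strand and printed 5′ to 3′, and 6 of the 8 genes have such a window, C1qa and Cfb being the others. Capitals mark matches to the motifs named below the sequences.
C1qb, chr4:136886201-136886350: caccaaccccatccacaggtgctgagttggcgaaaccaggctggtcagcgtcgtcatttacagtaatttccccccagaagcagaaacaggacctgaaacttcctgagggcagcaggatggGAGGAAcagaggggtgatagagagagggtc
C1qc, chr4:136892915-136893064: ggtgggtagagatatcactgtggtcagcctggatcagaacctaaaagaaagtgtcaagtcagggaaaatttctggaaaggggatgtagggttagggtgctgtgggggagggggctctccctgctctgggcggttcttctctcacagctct
C3, chr17:57228137-57228286: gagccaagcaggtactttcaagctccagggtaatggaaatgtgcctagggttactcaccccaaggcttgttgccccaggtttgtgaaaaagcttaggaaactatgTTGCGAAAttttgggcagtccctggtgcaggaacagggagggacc
C3ar1, chr6:122856158-122856307: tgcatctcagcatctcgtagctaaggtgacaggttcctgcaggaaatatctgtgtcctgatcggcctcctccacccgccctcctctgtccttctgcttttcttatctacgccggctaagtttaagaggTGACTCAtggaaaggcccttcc
Both strands of the 150 bases were searched for GAGGAA (a core bound by PU.1 and other Ets factors), TTGCNNAA (a C/EBP site), TGACTCA (an AP-1 site), TTCNNNGAA (a STAT site), the interferon-stimulated response element and the kappa-B site. GAGGAA stood in C1qb, 30 bases before the start, and is found in 14.5% of all 32851 windows. The C/EBP letters stood in C3, 45 bases before the start, against 5.46% of windows. The AP-1 letters stood in C3ar1, 22 bases before the start, against 2.84% of windows. No window of the 6 genes held the STAT letters (4.09% of windows), the interferon letters (1.59%) or the kappa-B letters (0.103%). In the RefSeq order of protein-coding genes, C1qb, C1qc and C1qa follow each other on chromosome 4, Cfb lies beside C2 on chromosome 17 and C5ar1 beside C5ar2 on chromosome 7. A match of letters is a description only.

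The 8 genes divided over the cells in 3 ways. The C1q genes and C3ar1 were highest in macrophages, C3 in immature neutrophils among the larger classes, and C5ar1 in mature neutrophils. Cfp was spread over macrophages, monocytes, neutrophils and dendritic cells, and Cfb had few UMIs in every immune class. The plot of levels by class shows this for both libraries.

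**Figure D1:**
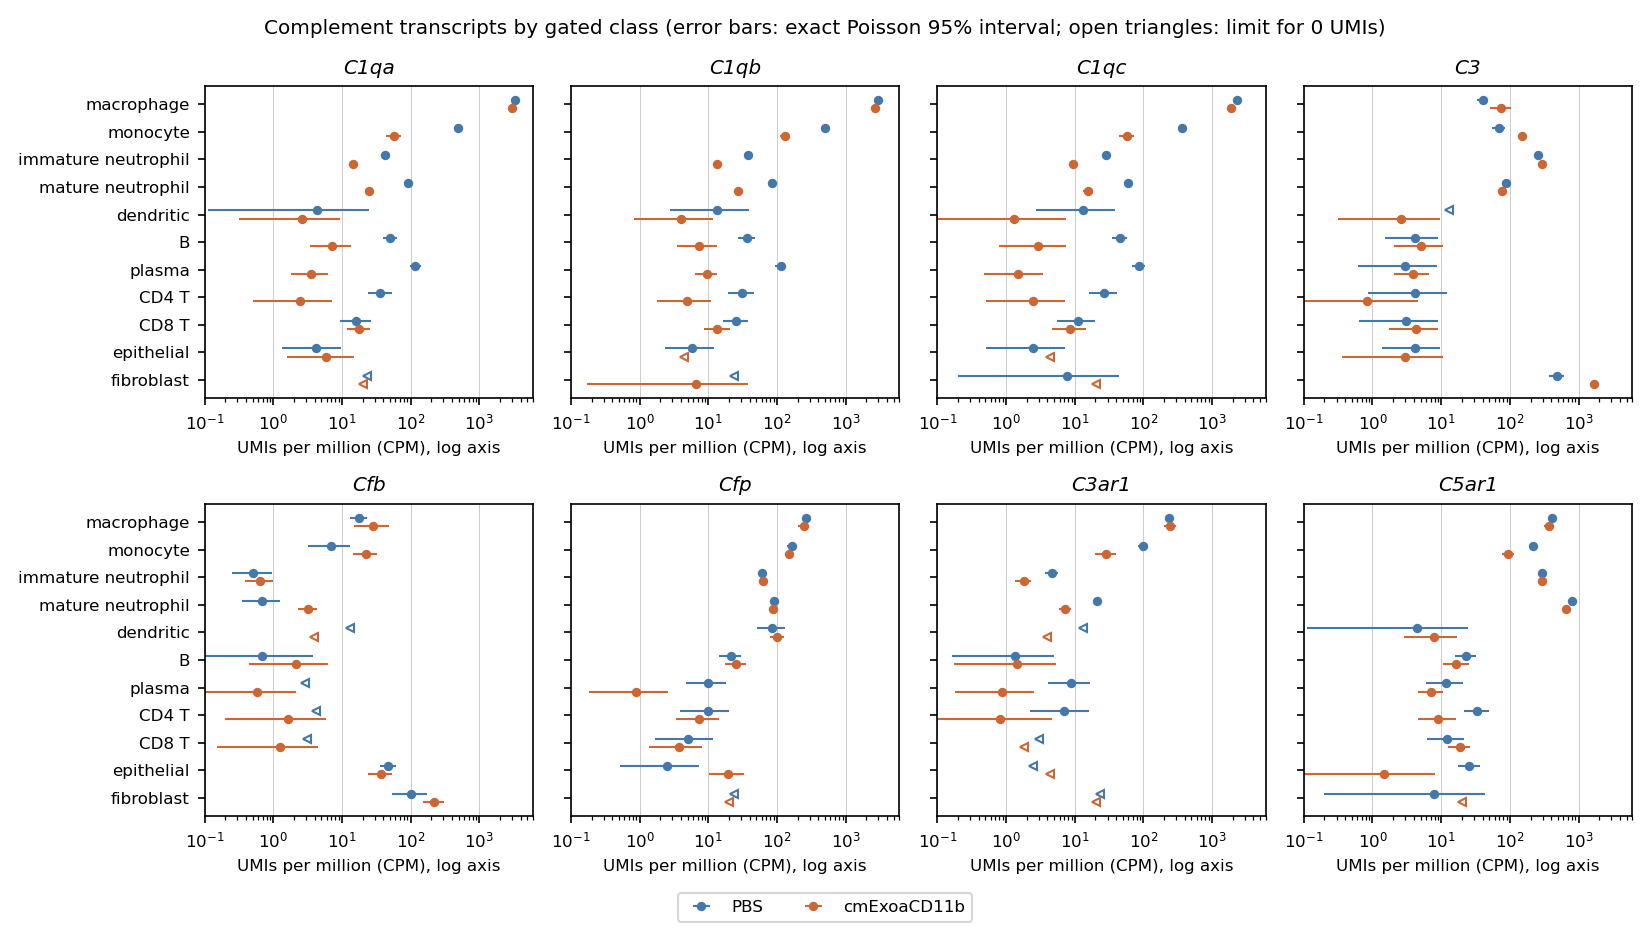
Level of each complement gene (CPM, log axis) in 11 gated classes of the PBS (blue) and cmExoaCD11b (orange) libraries, with exact Poisson 95% intervals and open triangles at the limit that a count of 0 allows (3 counts). C1qa lies at 3277 and 3010 CPM in macrophages, above every other class drawn, while C3 peaks in immature neutrophils and in the few fibroblasts.

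In PBS macrophages (203 cells) C1qa stood at 3277 CPM (3210 to 3345). In cmExoaCD11b macrophages (43 cells) it stood at 3010 CPM (2853 to 3172). C1qb stood at 2958 and 2656 CPM in the same order. C1qc stood at 2302 and 1912 CPM. The ratio of cmExoaCD11b to PBS was 0.918 for C1qa (0.867 to 0.972), 0.898 for C1qb (0.845 to 0.954) and 0.831 for C1qc (0.773 to 0.891). The 3 C1q ratios lay slightly below 1, and none passed a 2-fold change. The median ratio of the 6677 genes tested in macrophages was 1.03. The middle 50% of genes lay between 0.826 and 1.28, a range that holds the 3 C1q ratios.

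C1q was unevenly spread among macrophages. The C1q sum per cell ran from 0 to 30650 CPM in PBS, with a median of 5144, and from 0 to 26550 CPM in cmExoaCD11b, with a median of 4842. The 2 ranges overlapped almost fully. Of 203 PBS macrophages, 149 held at least 5 C1q UMIs and together held 99.85% of the class's C1q UMIs. Of 43 cmExoaCD11b macrophages, 27 did so, with 99.8%. With every cell thinned to 1000 UMIs, 95 of 202 PBS macrophages had a UMI of all 3 C1q genes and 60 had none. In cmExoaCD11b 18 of 42 had all 3 and 13 had none.

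The proportions among the C1q transcripts were close in macrophages of both libraries. In macrophages, C1qa, C1qb and C1qc made up 38.4%, 34.65% and 27.0% of C1q UMIs in PBS and 39.7%, 35.05% and 25.2% in cmExoaCD11b. Monocytes of cmExoaCD11b departed from this, with C1qb at 53.8% (47.7 to 59.8) of 277 UMIs, against 36.8% of 1767 UMIs in PBS monocytes. The share stayed at 57.1% (49.4 to 64.5) without the cell that held the most C1q. C1qb exceeded C1qa in 12 of the 18 cmExoaCD11b monocytes with any C1q, against 21 of 52 in PBS, so a small number of cells carries this difference. Cells of no class had C1qb at 39.4% against 35.6% in PBS. Mature neutrophils had 40.8% against 36.0%, but 38.0% (34.1 to 42.0) against 36.1% without the top cell. In CD8 T cells and T cells of neither CD4 nor CD8 class it was lower, on at most 120 UMIs. In plasma cells C1qb made up 65.3% (50.4 to 78.3) of 49 UMIs in cmExoaCD11b, against 36.0% of 325 UMIs in PBS. Without the top cell, which held 308 of those UMIs, the PBS plasma share was 64.7% (38.3 to 85.8) of 17 UMIs.

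In monocytes the C1q genes were far lower in cmExoaCD11b. C1qa stood at 496 CPM in 100 PBS cells and at 56.7 CPM in 98 cmExoaCD11b cells, a ratio of 0.114 (0.0869 to 0.148). C1qb stood at 505 and 132 CPM, a ratio of 0.261. C1qc stood at 370 and 56.7 CPM, a ratio of 0.153. A few cells held most of it, since 30 of the 100 PBS monocytes carried 98.25% of the C1q UMIs and 9 of 98 cmExoaCD11b monocytes carried 95.7%. Those PBS monocytes held 137 Apoe UMIs on average against 22.9 in the rest, Apoe being a lipid-carrier gene abundant in macrophages. The part of macrophage-like cells inside the monocyte gate was not tested.

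The comparison of macrophages turned on how they were gated. The study marks macrophages by Adgre1 (F4/80) and Itgam (CD11b), and cells with a UMI of both and no other lineage's gate numbered 273 in PBS and 152 in cmExoaCD11b. In these cells C1qa stood at 2650 and 524 CPM, a ratio of 0.198 (0.186 to 0.209). C1qb gave 0.202 and C1qc 0.174. Of the other members, C3ar1 stood at 0.29 (0.24 to 0.347), C5ar1 at 0.505 (0.454 to 0.56) and Cfp at 0.672 (0.601 to 0.751). C3 stood at 2.98 (2.56 to 3.48), and Cfb at 1.2 (0.843 to 1.7), an interval that holds 1. Cells that the marker gate calls macrophages made up 45.8% of this set in PBS and 12.5% in cmExoaCD11b, and cells of no gate made up 36.6% and 63.8%. Within the set, the cells gated as macrophages held 10020 and 8964 C1q CPM, and those without a gate held 4786 and 509. The latter also carried a median of 33.5 and 36 neutrophil marker UMIs beside 37 and 40 phagocyte marker UMIs, and the part of doublets was not tested.

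Across all kept cells the C1q genes were much lower in cmExoaCD11b. C1qa stood at 328 CPM in PBS and 52.6 CPM in cmExoaCD11b, a ratio of 0.1605 (0.155 to 0.167), with C1qb at 0.175 and C1qc at 0.149. With C3ar1, these made 4 of 8 members at least 2-fold lower and none higher, against 7.68% and 2.85% of all 14188 genes tested. The 6 macrophage check markers, which were not used to gate, were lower too, by differing amounts. Apoe had a ratio of 0.117, Lgmn 0.298, Cd68 0.342, Ctsb 0.444, Hexa 0.643 and Cd63 0.741. Within gated macrophages Apoe had a ratio of 0.545, and the other check markers lay nearer 1. Cd68 stood there at 0.799, Lgmn at 0.847, Cd63 at 0.892, Hexa at 0.901 and Ctsb at 1.005. After thinning to 1000 UMIs, cells with at least 5 C1q UMIs numbered 180 of 6467 in PBS (2.78%, 2.40 to 3.21) and 45 of 6634 in cmExoaCD11b (0.678%, 0.495 to 0.907). Of these cells, 102 and 21 were gated macrophages, which is 50.5% and 50% of the thinned macrophages. The C1q UMIs per such cell had a median of 11 in PBS and 9 in cmExoaCD11b. These cells were chosen for at least 5 UMIs, so the medians say nothing of the level below that.

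**Figure D2:**
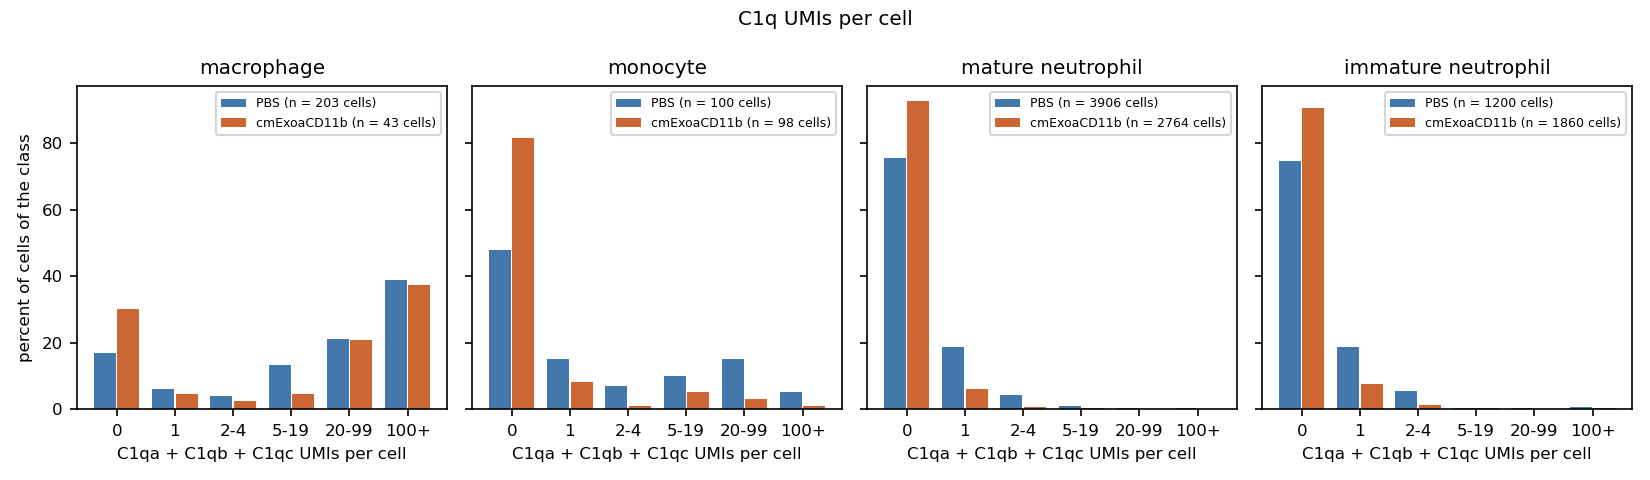
Percent of cells of each class (y axis) by the number of C1q UMIs in the cell (x axis, bins from 0 to 100 or more) in the PBS (blue) and cmExoaCD11b (orange) libraries. Macrophages of both libraries spread over the whole range, while 2954 of 3906 PBS mature neutrophils held none.

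Neutrophils held few C1q UMIs each. C1qa stood at 93.0 CPM in mature neutrophils of PBS and at 24.5 CPM in those of cmExoaCD11b, a ratio of 0.263 (0.232 to 0.297). In immature neutrophils it stood at 42.3 and 14.7 CPM, a ratio of 0.347. With cells thinned to 1000 UMIs, 4.41% of PBS mature neutrophils (median depth 3000.5 UMIs) and 0.908% of cmExoaCD11b mature neutrophils (median depth 3009.5) had a C1qa UMI. B cells, which should lack the gene, had shares of 3.77% (median depth 3273.5) and 1.80% (median depth 3738). The neutrophil shares lay near or below these, and the source of the C1qa UMIs in neutrophils was not tested. In empty droplets C1qa stood at 643 and 140 CPM, a ratio of 0.218. Of the C1q UMIs in PBS mature neutrophils, 70.0% lay in 53 droplets, which held 75.1 Apoe UMIs on average against 1.24 in the rest. Among mature neutrophils with at most 2 phagocyte marker UMIs, C1qa kept 417 UMIs in PBS and 73 in cmExoaCD11b, a ratio of 0.212.

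C3 lay mainly in immature neutrophils. They held 72.1% of all C3 UMIs in PBS cells and 82.2% in cmExoaCD11b cells. There C3 stood at 258 CPM (251 to 265) in 1200 PBS cells. In 1860 cmExoaCD11b cells it stood at 298 CPM (292 to 304), a ratio of 1.15 (1.11 to 1.19). The median ratio of all 11091 genes tested in this class was 1.14, so C3 relative to that median gave 1.01. With cells thinned to 1000 UMIs, 21.3% (18.97 to 23.8) and 22.2% (20.3 to 24.3) of immature neutrophils had a C3 UMI, against 0.377% and 0.360% of B cells. Few of them had more than 1, with 32 of 1125 PBS cells and 62 of 1722 cmExoaCD11b cells at 2 or 3.

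**Figure D3:**
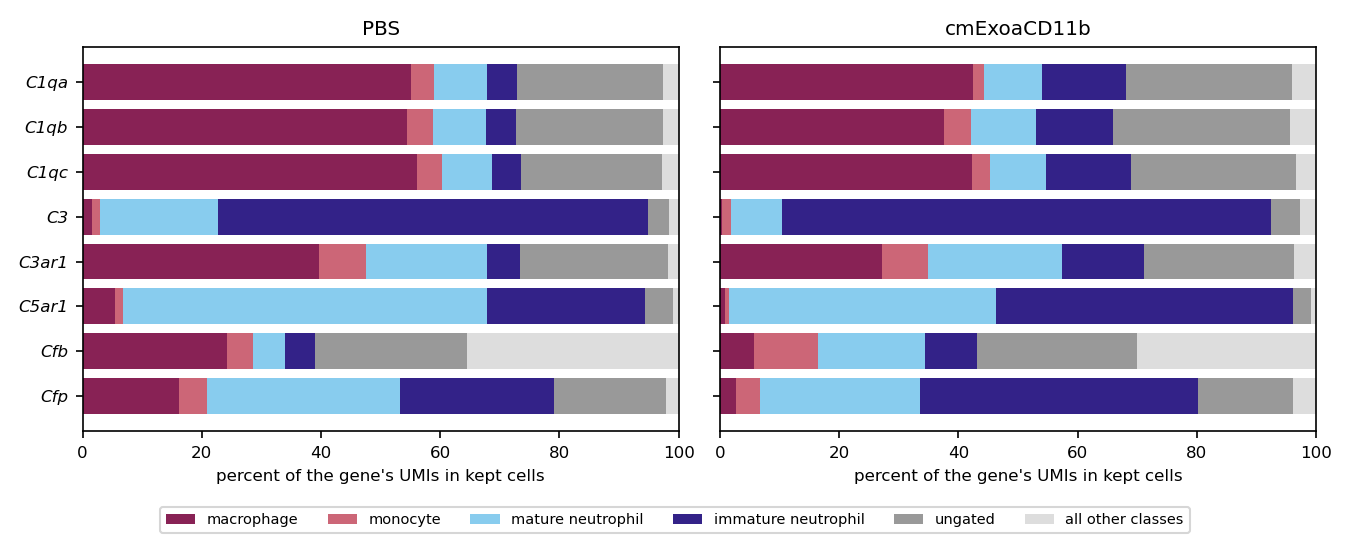
Percent of each gene's UMIs in kept cells (x axis, stacked to 100) that lie in macrophages, monocytes, mature and immature neutrophils, ungated cells and all other classes, for both libraries. Macrophages hold the largest part of C1qa, C1qb and C1qc (55.1% and 42.4% of C1qa UMIs), immature neutrophils that of C3.

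In mature neutrophils, monocytes and macrophages, C3 was lower than in immature neutrophils and moved differently by class. In mature neutrophils it stood at 87.1 CPM in PBS and 76.3 CPM in cmExoaCD11b, a ratio of 0.876 (0.807 to 0.952). In monocytes it stood at 68.3 and 151 CPM, a ratio of 2.22 (1.70 to 2.90), and 17.3% of thinned cmExoaCD11b monocytes had a UMI against 6.12% in PBS. Cell by cell, 65% of PBS monocytes and 40.8% of cmExoaCD11b monocytes held no C3 UMI at full depth, with medians of 0 and 80.2 CPM. In macrophages C3 stood at 40.0 and 73.7 CPM, a ratio of 1.84 (1.22 to 2.73) that rests on 111 and 34 UMIs. With cells thinned to 1000 UMIs the macrophage ratio was 0.74, on 13 and 2 UMIs, so its direction is not settled. In monocytes, where the C1q genes were lower in cmExoaCD11b, C3 was thus higher. In empty droplets C3 stood at 115 and 179 CPM, and at the share of free RNA that neutrophil granule genes give for monocytes this amounts to 10.9 and 7.26 CPM. That share also counts any RNA of these granule genes that monocytes make themselves.

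Fibroblasts, of which only 7 and 6 were gated, gave the highest C3 level of any class. Their C3 level was 484 CPM (371 to 620) in PBS. In cmExoaCD11b it was 1660 CPM (1460 to 1880). Cell by cell, the 7 PBS fibroblasts held 28, 12, 9, 8, 4, 1 and 0 C3 UMIs. The 6 cmExoaCD11b fibroblasts held 164, 47, 21, 16, 0 and 0. A single cell of 20728 UMIs thus held 164 of the 248 C3 UMIs of its class, and the cells with none in cmExoaCD11b were not shallow, at 26304 and 62469 UMIs. The cells of the libraries overlap.

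Factor B was scarce in immune cells. Cfb stood at 17.7 CPM (49 UMIs) in PBS macrophages and 28.2 CPM (13 UMIs) in cmExoaCD11b macrophages, a ratio of 1.60 (0.795 to 2.99) that holds 1. In monocytes 9 and 25 UMIs (6.99 and 22.1 CPM) gave a ratio of 3.17 (1.43 to 7.71), higher in cmExoaCD11b, though under the 50 UMIs set for a comparison. Epithelial cells (36 and 30) held 47.5 and 36.9 CPM, and fibroblasts 101 and 221 CPM, and in PBS epithelial cells exceeded macrophages by a ratio of 2.69 (1.80 to 4.03). In cmExoaCD11b that ratio was 1.31 (0.645 to 2.79), which holds 1. In mature neutrophils 11 and 41 UMIs gave a ratio of 4.60 (2.32 to 9.92). Among mature neutrophils with at most 2 phagocyte marker UMIs, 6 and 4 Cfb UMIs remained, so most Cfb UMIs of the cmExoaCD11b class lay in droplets that also carried phagocyte markers.

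Properdin was spread over macrophages, monocytes, neutrophils and dendritic cells. Cfp stood at 261 CPM in PBS macrophages and 247 CPM in cmExoaCD11b macrophages, a ratio of 0.946 (0.770 to 1.15). Monocytes held 163 and 151 CPM, mature neutrophils 90.9 and 87.3 CPM, and immature neutrophils 59.9 and 61.5 CPM. Dendritic cells, of which 21 and 57 were gated, held 83.6 and 102 CPM. Macrophages exceeded monocytes by a ratio of 1.60 (1.37 to 1.88) in PBS and 1.64 (1.28 to 2.09) in cmExoaCD11b, whereas mature neutrophils and dendritic cells were not separable in PBS (1.09, 0.694 to 1.81) or in cmExoaCD11b (dendritic over mature, 1.16, 0.912 to 1.47). The ratios between libraries in monocytes and both neutrophil classes lay between 0.923 and 1.03. Over all kept cells the ratio was 0.757 (0.725 to 0.789), lower than in any of these 4 classes, which differ in their share of cells between the libraries.

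The C3a receptor, like the C1q genes, was highest in macrophages among the classes shown. In PBS macrophages C3ar1 stood at 235 CPM (217 to 254). In those of cmExoaCD11b it stood at 245 CPM (202 to 295), a ratio of 1.04 (0.847 to 1.28). Monocytes held 99.4 and 28.3 CPM, a ratio of 0.285 (0.187 to 0.423). Mature neutrophils held 21.2 and 7.24 CPM, a ratio of 0.341, and among those with at most 2 phagocyte marker UMIs the counts were 194 and 15 UMIs, a ratio of 0.0935. Dendritic, CD8 T and epithelial cells held no C3ar1 UMI in either library, where a count of 0 allows up to 13.2, 3.06 and 2.5 CPM in PBS (3 counts). Among thinned PBS macrophages, 38 cells with a C1q UMI also had a C3ar1 UMI, as did 9 of the 60 cells without C1q. Macrophages held 39.7% of all C3ar1 UMIs in PBS and 27.2% in cmExoaCD11b, and they exceeded monocytes by a ratio of 2.36 (1.95 to 2.88) and 8.64 (5.79 to 13.2).

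The C5a receptor was highest in mature neutrophils. PBS cells held 815 CPM of C5ar1 (801 to 829). Those of cmExoaCD11b held 662 CPM (648 to 676), a ratio of 0.812 (0.790 to 0.834). With cells thinned to 1000 UMIs, 49.9% (48.3 to 51.5) and 46.4% (44.5 to 48.4) of them had a UMI, against 2.64% and 1.08% of B cells. At 4 or more UMIs stood 187 of 3739 PBS cells and 76 of 2644 cmExoaCD11b cells. Immature neutrophils held 290 and 297 CPM, a ratio of 1.03 (0.993 to 1.06), below the median ratio of that class. Macrophages held 416 and 369 CPM, a ratio of 0.885 (0.749 to 1.04), and monocytes 217 and 93.9 CPM, a ratio of 0.433 (0.343 to 0.544). Mature neutrophils held 61.05% of C5ar1 UMIs in PBS and 44.9% in cmExoaCD11b, and immature neutrophils 26.55% and 49.75%. Mature neutrophils exceeded macrophages, the next class, by a ratio of 1.96 (1.84 to 2.08) in PBS and 1.795 (1.54 to 2.10) in cmExoaCD11b.

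Members past a 2-fold change were counted in macrophages, monocytes and both neutrophil classes. In macrophages none of the 8 members passed, while 4.67% of all tested genes were at least 2-fold lower and 3.58% at least 2-fold higher. In monocytes 5 of 7 tested members were lower (C1qa, C1qb, C1qc, C3ar1 and C5ar1) and C3 was higher, against 4.69% and 4.1% of all 5928 genes. In mature neutrophils 4 of 8 were lower, the C1q genes and C3ar1, and Cfb was higher, against 6.67% and 5.19% of all 10736 genes. C1qa UMIs there lay in a share of cells near or below that of B cells, and their source was not tested. Cfb rests on droplets with phagocyte markers, as given above, and C3ar1 was 0.52 with barcodes past the ranked cut-off alone. In immature neutrophils the same 4 of 7 were lower and none higher, against 1.1% and 3.61% of all genes. In that class 13 droplets held 82.5% of the PBS C1q UMIs. With free RNA subtracted the C1q genes stood at 0.537, 0.607 and 0.557. That subtraction used the share of mature neutrophils, not the larger PBS share of immature neutrophils (19.5% of the empty level). At the larger share, with C1qa at 643 CPM in PBS empty droplets, the amount subtracted would exceed the 42.3 CPM of the class. No ratio of C1qa can then be formed, and the source of the C1q UMIs in this class was not tested. C3ar1 stood at 0.784 when thinned and 0.566 as a mean over cells. All these ratios were short of 2-fold. In monocytes and both neutrophil classes the C1q genes and C3ar1 had ratios between 0.114 and 0.392. Lower C1q was not limited to them. C1qa had ratios of 0.144 in B cells, 0.0301 in plasma cells and 0.190 in cells of no class. In PBS a single cell held 45 of the 74 C1qa UMIs of B cells, and another 116 of the 120 of plasma cells.

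**Figure D4:**
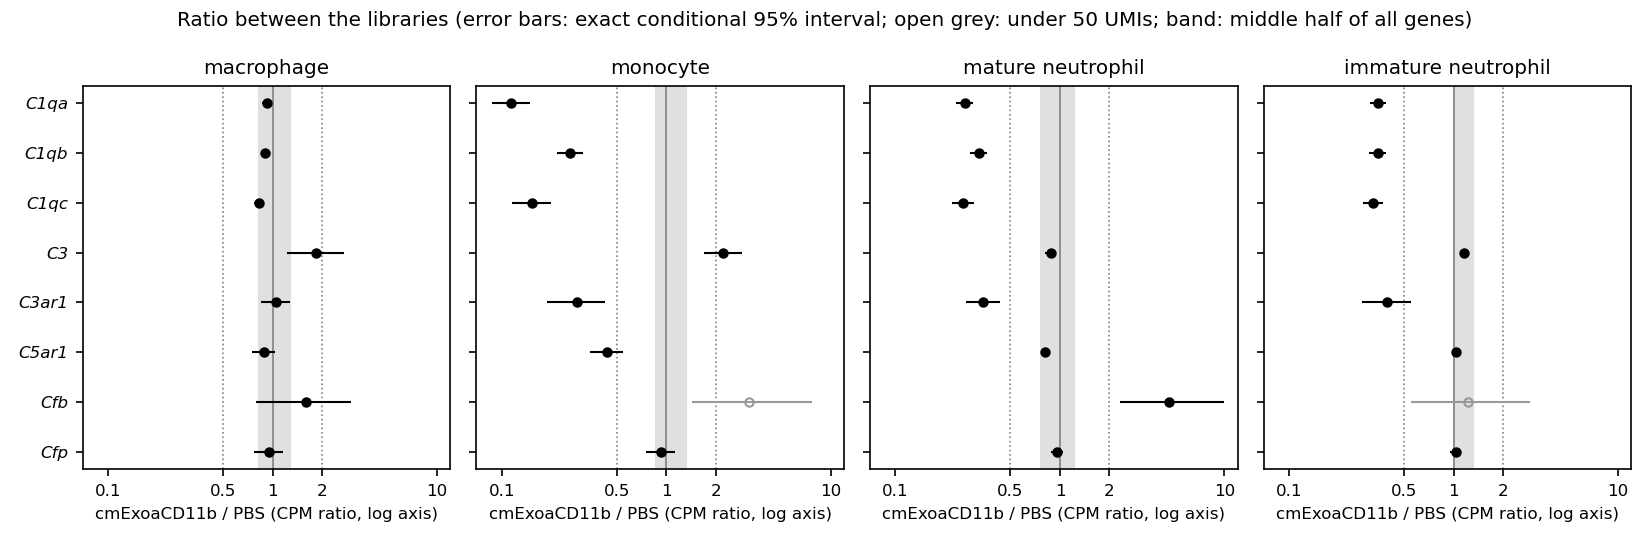
Ratio of cmExoaCD11b to PBS (log axis) of each complement gene in 4 classes, with exact conditional 95% intervals, the middle 50% of all tested genes as a grey band and 2-fold limits as dotted lines. In macrophages every member lies within 2-fold of 1, whereas in monocytes C1qa lies at 0.114 and C3 at 2.22.

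To see which macrophages held C1q, macrophages thinned to 1000 UMIs were split by a UMI of another gene. Cells with H2-Aa, an MHC class II gene that presents antigen, held more C1q in both libraries. In PBS, 62 cells with H2-Aa stood at 12940 C1q CPM and 140 without at 4921, a ratio of 2.63 (2.37 to 2.91). In cmExoaCD11b, 18 cells with H2-Aa stood at 10940 and 24 without at 3417, a ratio of 3.203 (2.46 to 4.197). With cells thinned to 2000 UMIs, the PBS ratio for H2-Aa was 2.135 (1.98 to 2.30). Cells with Trem2, a lipid-sensing receptor, gave ratios of 1.64 and 1.37 in the same order. Arg1, an arginine-consuming enzyme, gave 0.92 (0.830 to 1.02) and 1.04 (0.811 to 1.32), but 0.719 (0.667 to 0.774) in PBS with cells thinned to 2000 UMIs.

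Other splits differed between the libraries or with the thinning depth. Mrc1 (CD206, a mannose receptor) gave 1.88 (1.68 to 2.09) in PBS and 0.886 (0.622 to 1.23) in cmExoaCD11b, the latter with 7 cells. At 2000 UMIs it gave 1.61 (1.50 to 1.74) and 1.77 (1.48 to 2.11), so the difference between libraries was not seen at that depth. Isg15, an interferon-induced gene, gave 0.878 (0.769 to 0.999) in PBS and 0.416 (0.298 to 0.569) in cmExoaCD11b. Spp1 (osteopontin) gave 0.885 and 0.694. At 2000 UMIs the PBS ratio for Isg15 was 0.956 (0.877 to 1.04), which holds 1. The difference of a split between libraries was not tested. Of the genes split, Mrc1, Trem2, Cx3cr1 and Folr2 had also served to gate macrophages, while H2-Aa, Isg15, Spp1 and Arg1 had not. For C3ar1, C5ar1, Cfb and Cfp the H2-Aa split had intervals that hold 1 in both libraries, with C3ar1 at 1.37 (0.744 to 2.46) and C5ar1 at 0.7185 (0.4175 to 1.19) in PBS.

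Macrophages that carried a UMI of a monocyte gene held less C1q than those without. Cells with Ly6c2, a surface gene of recruited monocytes, stood at 2667 C1q CPM in PBS against 7601 without, a ratio of 0.351 (0.224 to 0.524). In cmExoaCD11b the ratio was 0.108 (0.0291 to 0.279) with 5 cells. Cells with Vcan, a matrix proteoglycan, gave 0.0866 (0.0318 to 0.189) in PBS with 9 cells, and in cmExoaCD11b 3 such cells held 0 C1q UMIs. Ccr2, the receptor that draws monocytes into tissue, gave 0.782 and 0.614. At 2000 UMIs Ly6c2 gave 0.3255 and 0.309, Vcan 0.2205 and 0.145 (3 cells with 7 UMIs in cmExoaCD11b), and Ccr2 0.675 and 0.1835, each below 1 but several over 1.5 times away from the values above. Ly6c2, Ccr2 and Vcan belong to the list that gated monocytes, so macrophages with their UMIs passed on a higher sum of macrophage markers.

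**Figure D5:**
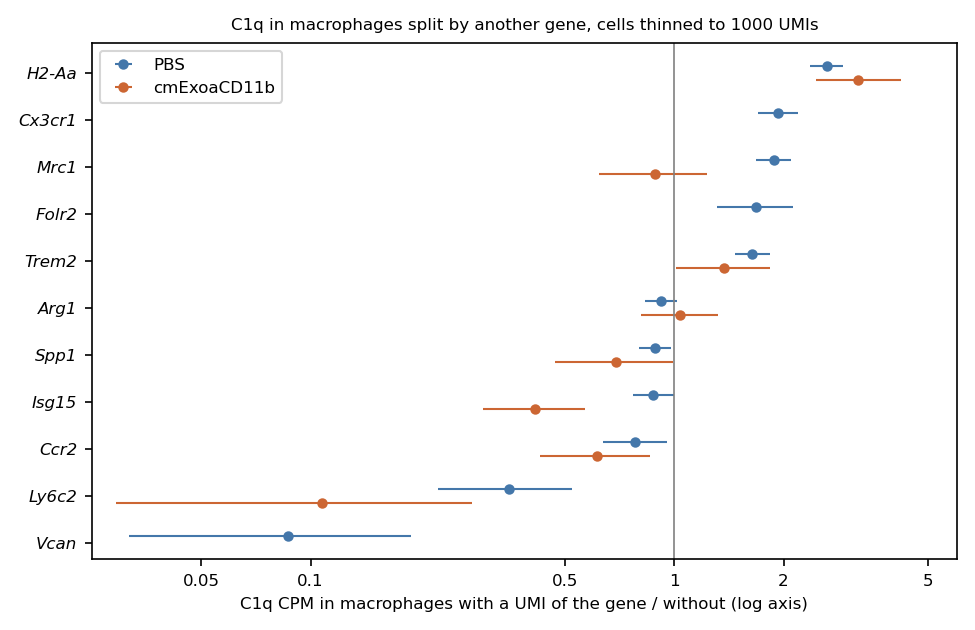
C1q level in macrophages with a UMI of the named gene over that in macrophages without (log axis, exact conditional 95% intervals, cells thinned to 1000 UMIs), for splits with at least 3 cells that hold the gene and a ratio above 0. Cx3cr1 (2 cells) and Folr2 (1 cell) in cmExoaCD11b and Vcan there (0 UMIs) are therefore not drawn. H2-Aa lies at 2.63 in PBS and 3.203 in cmExoaCD11b, and Ly6c2 at 0.351 and 0.108.

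Of 45 other complement genes, most were scarce or absent. In macrophages 11 of the 45 reached 50 UMIs and 18 had none. C4b, a classical component cleaved by C1s, stood at 40.35 CPM in PBS and 13.01 in cmExoaCD11b, a ratio of 0.322 (0.116 to 0.724). Fcna (ficolin A, a lectin pathway recognition protein) stood at 34.9 and 4.34 CPM, a ratio of 0.124 (0.0148 to 0.461) that rests on 97 and 2 UMIs. These were the 2 genes of 11 past a 2-fold change in macrophages, both lower, against 4.67% of all genes. Itgam, a subunit of complement receptor 3, stood at 429 and 308 CPM, a ratio of 0.717 (0.598 to 0.854).

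In monocytes 10 of the 45 reached 50 UMIs, and 2 were past a 2-fold change, both lower, among them C4b (0.256), against 4.69% of all genes. In mature neutrophils 14 did and none was past it, against 6.67% of all genes lower and 5.19% higher. In immature neutrophils 16 did, with Clu (clusterin, an inhibitor of the membrane attack complex) at 0.329 and C1ra (a classical protease) at 2.26, the latter on 16 and 59 UMIs. Of all genes tested in immature neutrophils, 1.1% were at least 2-fold lower and 3.61% higher. Fcnb (ficolin B), a secretory product of immature neutrophils, stood there at 586 and 595 CPM. Over all kept cells 7 of 28 were at least 2-fold lower, among them C4b (0.331), Fcna (0.0443), Clu (0.367) and Lrp1 (0.431), against 7.68% of all genes. Cfd (factor D, named after its values were seen) was higher, on 6 and 54 UMIs, against 2.85% of all genes.

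Across classes, the genes most like each member were ranked by Pearson's r of log2(CPM + 1) over 14 profiles of the 7 classes with at least 50 cells in both libraries, which leaves out macrophages. The values are a description, since the profiles share libraries and depth. For C1qa the nearest were C1qc (0.984), C1qb (0.960), Ccl7, Pf4 and Stab1. C1qb was nearest to C1qc (0.974), C1qa, 2510009E07Rik, Stab1 and E230029C05Rik, and C1qc to C1qa, C1qb, Ccl7, Pf4 and Dapk1. For C3 they were Mgst1 (0.981), Rhou, AI839979, Olr1 and Hp. For C3ar1 they were Snx24 (0.948), Cysltr1, Fmn1, Sphk1 and Stab1, for C5ar1 Neat1 (0.985), Rhob, Sgms2, Trem1 and Trib1, for Cfb C1galt1c1 (0.916), Sirpb1a, Ifi205, Gm4117 and Laptm4a, and for Cfp Hexa (0.972), Mpp1, Slc8b1, Atp6v0b and Lamp2. With 20 profiles of classes of at least 30 cells, chosen after seeing the data so that macrophages entered, C1qa was nearest to C1qc (0.982), C1qb (0.958), Apoe, Itga9 and Pf4. There C1qa, C1qb and C1qc stayed nearest to each other. The lists of C3ar1, C5ar1 and Cfb shared no gene with those above. C3 kept only AI839979 and Cfp only Hexa, so these lists depend on the classes used. Cfb had 0 to 3 UMIs in each T and B cell profile, so its list rests on few UMIs. C3ar1 had 0 to 5 and C3 1 to 7 in these profiles, so their lists rest on few UMIs there too. The C1q genes had 3 to 74 UMIs each in these profiles. The source of C1q UMIs in the neutrophil, T and B cell profiles was not tested.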

How the data were processed

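Per the file headers, the deposited matrices are raw UMI counts per gene and barcode from Cell Ranger 7.1.0, whereas the study's methods name another version. The genome build is not given in the sources used here. The authors deposited all barcodes (644248 in PBS, 723594 in cmExoaCD11b, with 67143628 and 81288480 UMIs). Cells were called by a ranked UMI cut-off and a test against empty droplets (at most 100 UMIs), giving 7696 and 7890 barcodes. The study states about 7800 immune cells analysed and does not say whether this is per library or in total. Cells with under 200 genes or over 20% mitochondrial UMIs were removed, as were 421 and 453 doublets taken by simulated-doublet score at the expected rate, since the automatic threshold marked 0. Classes needed at least 3 UMIs of at least 2 markers and at least 2 times every other lineage. Intervals are exact Poisson (levels), conditional (ratios) and Clopper-Pearson (shares). Genes with at least 50 UMIs over both libraries were compared, and a 2-fold change counted as a call, which is no test. In simulated counts for the macrophage comparison (6718 genes), all 190 genes changed 4-fold were recovered and 3.17% of unchanged genes were called. These counts were drawn without spread between cells or mice, so both rates cover counting error only. Named genes are the 8 members, pathway genes with at least 50 UMIs in a class, the split genes and the 5 nearest genes in profile. Members and lists were chosen with earlier results of these data known. Free RNA was gauged by transcripts taken as those of other lineages. The neutrophil granule list was S100a8 and S100a9, and whether monocytes make these themselves was not tested. PBS monocytes with under 5 C1q UMIs averaged 52.2 S100a8 UMIs, against 11.2 in the other PBS monocytes. The subtraction of free RNA used the share of mature neutrophils for both neutrophil classes. As a percent of the empty-droplet level, neutrophil granule genes stood at 2.24 and 2.275 in macrophages and 9.43 and 4.05 in monocytes, and immunoglobulin genes at 3.65 and 3.22 in mature and 19.5 and 3.675 in immature neutrophils. Haemoglobin genes reached 851.6 and acinar genes 535, above the empty level, and were not used. Some items are not reported here. Alternatives covered cell calling, gate strictness, depth, pooling and scaling. Python 3.11.15, numpy 2.4.6, scipy 1.17.1, pandas 2.3.3, scanpy 1.11.5 and matplotlib 3.10.9 were used.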

Additional observations from a re-analysis of the deposited data

Results flagged for a closer look

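C3 had ratios of cmExoaCD11b to PBS on opposite sides of 1 in different classes. They were 1.84 in macrophages, 2.22 in monocytes and 1.15 in immature neutrophils, against 0.876 in mature neutrophils. The sides are not stable, since C3 in macrophages was 0.74 with cells thinned to 1000 UMIs, on 13 and 2 UMIs, and C3 in mature neutrophils was 1.21 with barcodes past the ranked cut-off alone. The difference between classes was not tested, since each treatment is 1 library. C3 was also higher in cmExoaCD11b outside the gated classes, with a ratio of 1.87 in cells of no class and 1.56 in empty droplets.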

How the results depend on the processing

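No paired analysis was possible because the 2 libraries are pools of different mice. Of 331 recomputed ratios, 241 stayed inside the interval of the reported ratio, and of 190 recomputed levels, shares and splits 87 did. In all, 22 ratios no longer lay on the same side of 1, in 10 of 30 comparisons. Among ratios past 2-fold the 1 that turned was Cfb in mature neutrophils, at 0.806 with at most 2 phagocyte marker UMIs, a setting chosen after seeing the data. Of the others, C3 in macrophages ran from 0.74 to 2.98, C3 in mature neutrophils from 0.785 to 1.21, C3ar1 in macrophages from 0.29 to 1.36 and C5ar1 in macrophages from 0.496 to 1.27. The ratios of macrophages depended most on the gate. In cells with Adgre1 and Itgam they were 0.198 for C1qa, 0.202 for C1qb, 0.174 for C1qc, 0.29 for C3ar1 and 0.672 for Cfp. With macrophages and monocytes pooled they were 0.384, 0.399 and 0.352 for the C1q genes in that order and 0.487 for C3ar1. Thinning to 1000 UMIs gave 0.987 for C1qa, 1.36 for C3ar1 and 0.687 for Cfp in macrophages. It gave 0.241 for C1qa and 3.5 for C3 in monocytes, 0.85 for C5ar1 in mature neutrophils and 1.07 for C3 in immature neutrophils. A gate of 4 times every other lineage gave 0.757 for C1qc and 1.32 for Cfp in macrophages, and 0.0216, 0.132 and 0.0908 for C1qa, C1qb and C1qc in monocytes. A mean over cells gave 0.892 for C1qc and 1.32 for C3ar1 in macrophages, 0.156 for C1qa and 0.383 for C1qb in monocytes, 0.858 for C5ar1 in mature neutrophils and 1.11 for C3 in immature neutrophils. Barcodes past the ranked cut-off alone gave 0.0763 for C1qa and 0.213 for C1qb in monocytes and 0.893 for C5ar1 in mature neutrophils. C5ar1 in mature neutrophils was 0.779 where the highest lineage took the cell, also chosen after seeing the data, and 0.848 divided by the median ratio of all genes. C3 in immature neutrophils divided by that median was 1.01. Beyond the settings' own construction, the cause was not tested. With 43 macrophages in cmExoaCD11b, C3 and Cfb there rest on few UMIs.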
